A study of Mus musculus with 8 samples.

Results

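The cytosolic protein-folding machinery was described in OT-1 CD8+ T cells treated with GC7, as mRNA counts for 40 genes out of the 55536 genes counted in each library. The 40 genes were chosen by symbol, matched to their Ensembl identifiers on GRCm38, and were the regulator *Hsf1*, 2 HSP90 genes, 6 HSP90 co-chaperones, 4 HSP70 genes, 5 genes of the HSP110 family and of nucleotide exchange, 1 small heat shock protein, 7 J-domain proteins, 8 subunits of the chaperonin TRiC and 6 subunits of prefoldin. Each symbol matched 1 identifier.

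All 8 libraries came from lymph node CD8+ T cells of C57BL/6 mice that carried the OT-1 T cell receptor transgene on a Rag-1KO background, in which no other T cell receptors and no B cells are made. Donor mice were 5 to 12 weeks old and of either sex. All cultures received 100 nM of the ovalbumin peptide SIINFEKL for 2 days and then 20 ng/ml recombinant human IL-2 for 2 days. During the IL-2 days the cells received either 10 µM GC7 (GC7-treated, 4 biological replicates) or an equal volume of its acetic acid vehicle (mock-treated, 4 biological replicates). GC7 is an inhibitor of deoxyhypusine synthase, the enzyme that starts the hypusine modification of the translation factor eIF5a, so the comparison is of a drug with its vehicle.

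Chaperones bind proteins that have not yet folded, or that have lost their fold, and keep them from aggregating. HSP70 takes hold of short exposed stretches with the help of J-domain proteins and lets go when a nucleotide exchange factor, such as an HSP110 protein, replaces its ADP. HSP90 finishes signalling proteins such as kinases and steroid receptors together with a set of co-chaperones, and prefoldin and the ring-shaped chaperonin TRiC serve actin, tubulin and other proteins. HSF1 is the transcription factor that raises many of these genes on proteotoxic stress, and activated T cells, which grow and divide fast, express the machinery at high levels.

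Library totals ran from 20045041 to 25284730 counts in mock-treated and from 17528776 to 23449164 in GC7-treated cells, and the 40 genes took 1.39% to 1.46% of them in mock-treated and 1.457% to 1.598% in GC7-treated cells. Values below are counts scaled to 1000000 per library with TMM factors (CPM), which set the bulk of genes level between libraries. The T cell marker genes were all above the filter, with a summed level of 2946 to 3528 CPM in mock-treated and 2782 to 2952 CPM in GC7-treated cells. They did not move alike. At an adjusted p under 0.01, *Cd8a* was higher in GC7-treated cells (log2 fold change 0.48). *Lck* (-0.64), *Trac* (-0.38), *Cd3g* (-0.37) and *Cd3e* (-0.23) were lower, and *Cd8b1* and *Trbc1* were not called. Of 5 B cell markers 2 were at 0 in every library and the sum was 6.98 to 10.1 CPM in mock-treated and 4.61 to 5.90 CPM in GC7-treated cells. The 2 CD4 T cell markers summed to 91.6 to 95.8 CPM in mock-treated and 74.7 to 83.8 CPM in GC7-treated cells, nearly all of it *Zbtb7b*, which was lower in GC7-treated cells (log2 fold change -0.21, adjusted p = 0.00789), while *Cd4* itself was between 0.111 and 0.407 CPM. Myeloid markers summed to 8.39 to 11.02 CPM and 5.70 to 9.60 CPM. Stromal and endothelial markers summed to 52.1 to 56.7 CPM and 30.5 to 32.4 CPM, nearly all of it *Pecam1*, which T cells can express, while *Cdh5* was at 0. The part of these marker differences in the results below was not tested. In bulk RNA, fewer cells that express a gene cannot be told apart from less RNA of it per cell.

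The mock-treated replicate 2 was the highest mock library in 24 of the 37 members tested, and the GC7-treated replicate 3 was the lowest GC7 library in 24 of 37. Counts of members called are therefore given with and without these libraries. The spread between replicates was small, with a common biological coefficient of variation of 0.0918 over all genes tested.

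In the main fit GC7 treatment moved a smaller share of chaperone mRNAs than of all genes tested, and moved them in both directions. Of the 40 members, 37 passed the expression filter of more than 3 CPM in at least 4 libraries and 3 did not (*Hspa1a*, *Hspa1b* and *Hspb1*). At an adjusted p under 0.01 (edgeR quasi-likelihood test, Benjamini-Hochberg adjustment over 11189 genes), 4 of the 37 were higher in GC7-treated cells (10.8%, against 23% of all genes tested) and 7 were lower (18.9%, against 23.5% of all genes tested). The 4 higher members were *Hsf1*, *Hspa8*, *Cct4* and *Pfdn4*. The 7 lower members were *Hsp90aa1*, *Fkbp4*, *Fkbp5*, *Hspa4l*, *Bag3*, *Dnajb1* and *Dnajc7*. In either direction 29.7% of the members tested were called, against 46.6% of all genes tested. No member passed a 2-fold change, against 3.17% of all genes for higher and 5.31% for lower, and the largest change was a 1.90-fold lower level of *Fkbp5*. The log2 fold changes (GC7 minus mock, so that a negative value is lower in GC7-treated cells) ran from -0.92 to 0.43 with a median of -0.07, beside a median of 0.02 over all genes tested. The median size of the change without its sign was 0.15 for members and 0.29 for all genes tested.

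The GC7 libraries lay wholly above the mock libraries for 5 members (28.1% of all genes tested did so) and wholly below them for 10 (27.5% of all genes), and the groups overlapped for the other 22. Leaving out the mock-treated replicate 2 raised the count of higher members from 4 to 8, with *Bag1*, *Cct2*, *Pfdn5* and *Ptges3* added, and left 7 lower, and leaving out the GC7-treated replicate 2 left 4 lower. Leaving out both the mock-treated replicate 2 and the GC7-treated replicate 3 gave 10 higher, with *Hspa14* and *Dnaja2* added as well, and 6 lower, with *Bag3* lost. The counts over all genes tested moved as well. They were 2785 higher and 2733 lower without the mock-treated replicate 2, and 2290 lower without the GC7-treated replicate 2. Without both libraries that stood apart they were 3049 higher and 2985 lower. Higher members thus rose from 4 to 10 where higher genes overall rose from 2579 to 3049. The low share of higher members in the main fit therefore depended on which libraries were used. Scaling by library totals in place of TMM gave 9 higher and 4 lower among the members, and 3346 higher and 2058 lower over all genes tested, where TMM gave 2579 and 2635.

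**Figure D1:**
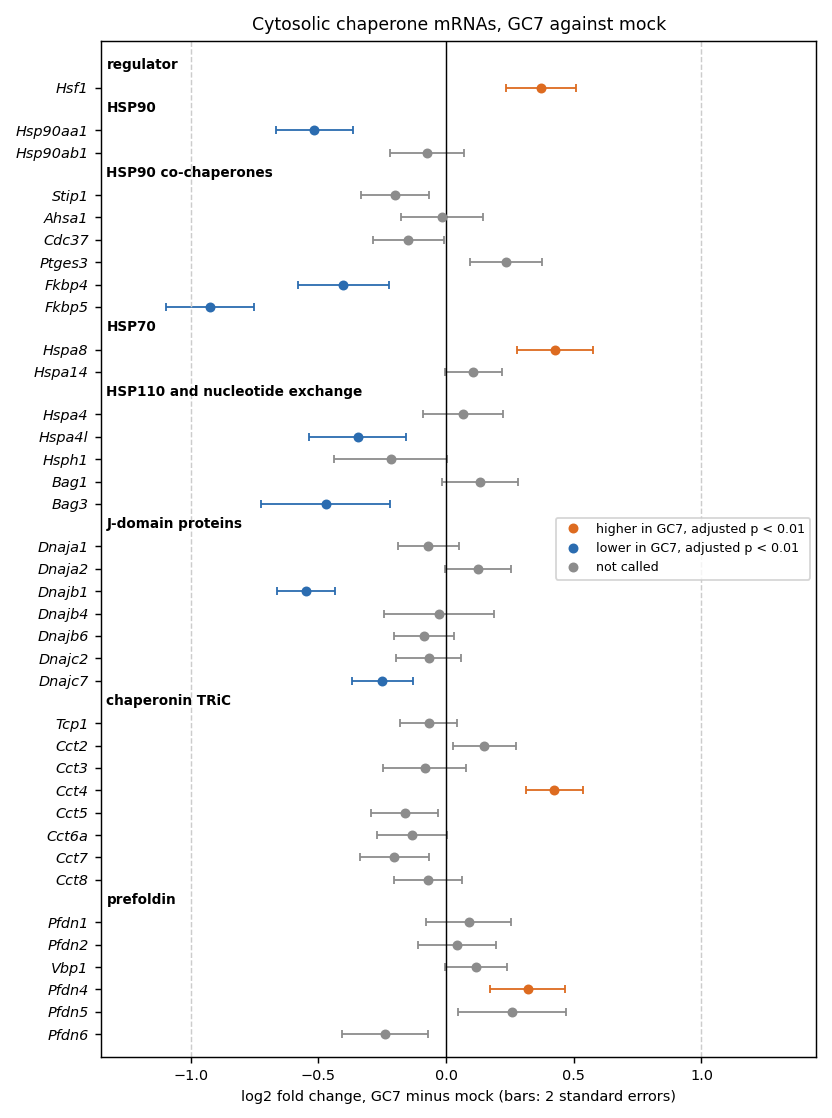
Log2 fold change (GC7 minus mock, horizontal axis) of the 37 chaperone mRNAs tested, ordered by role, with bars of 2 standard errors on either side and dashed lines at a 2-fold change. Orange marks the 4 members called higher and blue the 7 called lower at an adjusted p under 0.01; no point lies beyond the dashed lines.

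**Figure D2:**
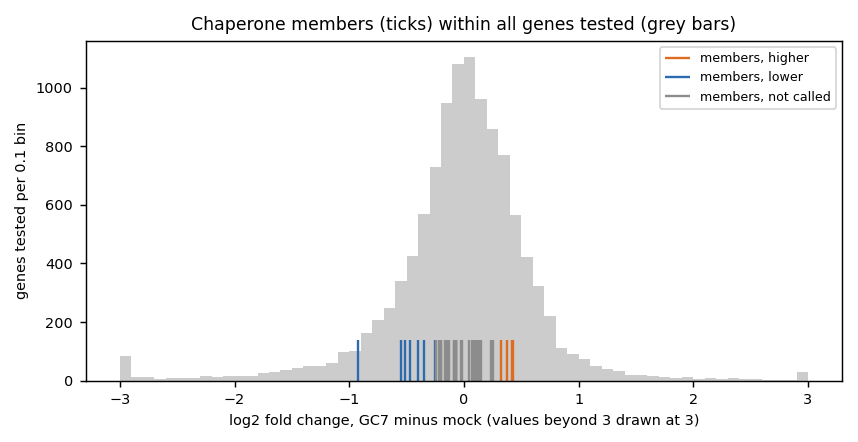
Grey bars count all 11189 genes tested by log2 fold change in bins of width 0.1, and the ticks at the foot mark the 37 chaperone members (orange higher, blue lower, grey not called). The members lie between -0.92 and 0.43, within the range where most genes lie.

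The regulator *Hsf1* (ENSMUSG00000022556, chr15:76477422-76501913 on GRCm38) was higher in GC7-treated cells. Its level was 37.3, 38.4, 35.9 and 41.0 CPM in mock-treated replicates 1 to 4 and 50.1, 50.8, 45.2 and 51.2 CPM in GC7-treated replicates 1 to 4. The lowest GC7 library lay above the highest mock library. The means were 38.1 ± 2.14 and 49.3 ± 2.78 CPM (SD, n = 4 each), a log2 fold change of 0.37 (SE 0.0685, edgeR adjusted p = 5.37e-04). HSF1 is regulated mainly as a protein, by release from chaperones and assembly into trimers, so an mRNA level is not a measure of its activity.

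HSF1 binds repeats of the letters nGAAn in alternating orientation. Promoter sequences of RefSeq on GRCm38.p6, taken from 250 bases before to 50 bases after each transcription start, were found for 33 of the 40 members, some with more than one start. Not matched were *Hsf1*, *Hsp90aa1*, *Hsp90ab1*, *Hspa8*, *Cct4*, *Dnajc2* and *Pfdn1*. A pair of facing units, GAANNTTC or TTCNNGAA (each reads the same on both strands), was in 15 of the 44 promoter windows of members (34.1%), where 15.1% of all 32851 windows hold it. Counted by gene, with a match in any window, it was in 13 of 33 members, where 17% of all 27025 genes with a promoter hold it. A run of 3 units, in which GAANNTTC is followed after 2 letters of any kind by GAA, or TTCNNGAA likewise by TTC (each is the other read on the opposite strand, and each contains the pair), was in 4 of the 44 windows, 2 overlapping windows each of *Hsph1* and *Dnajb6*, where 0.603% of all windows hold it. Neighbouring matches can overlap, and each is a match of letters and not a measured binding site. The letters TATAAA, on either strand, were in 1 of the 44 windows (*Stip1*) and in 13.6% of all windows.

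Among the members with a promoter entry that changed, the pair was in *Fkbp4* and in *Bag3*, both lower in GC7-treated cells, and not in the windows of *Fkbp5*, *Dnajb1*, *Dnajc7*, *Hspa4l* or *Pfdn4*. Most members with the pair were not called, and these were *Hsph1*, *Cdc37*, *Dnaja1*, *Dnajb4*, *Dnajb6*, *Cct2*, *Cct5* and *Cct6a*. It was also in the stress-inducible *Hspa1a* and *Hspa1b*, whose promoters are identical in 296 of 300 bases, and in *Hspb1*, and these 3 genes were near the limit of detection. The windows below are printed 5′ to 3′ on the strand of the gene, with the matched letters in capitals. They show the match in a called member (*Fkbp4*), in the inducible HSP70 gene *Hspa1a*, in a run of 3 units (*Dnajb6*), and in the chaperonin subunits *Cct2* and *Cct5*, whose shares of TRiC mRNA moved in opposite directions. *Fkbp4* lies at chr6:128438774-128438833, *Hspa1a* at chr17:34972227-34972286, *Dnajb6* at chr5:29735826-29735890, *Cct2* at chr10:117063384-117063443 and *Cct5* at chr15:31601847-31601906, all on the minus strand except *Dnajb6*, and the matches begin 151, 104, 46, 42 and 34 bases before the start.
Fkbp4: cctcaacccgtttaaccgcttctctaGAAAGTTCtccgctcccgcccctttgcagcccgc
Hspa1a: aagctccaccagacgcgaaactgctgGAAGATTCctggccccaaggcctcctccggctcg
Dnajb6: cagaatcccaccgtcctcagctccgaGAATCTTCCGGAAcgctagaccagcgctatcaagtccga
Cct2: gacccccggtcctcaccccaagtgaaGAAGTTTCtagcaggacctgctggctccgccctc
Cct5: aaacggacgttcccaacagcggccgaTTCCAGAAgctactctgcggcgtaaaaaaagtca

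The HSP90 genes separated. *Hsp90aa1* (ENSMUSG00000021270, chr12:110690605-110702728), the stress-inducible isoform, was 1122, 1012, 1000 and 1017 CPM in mock-treated replicates 1 to 4 and 765, 781, 652 and 704 CPM in GC7-treated replicates 1 to 4. Every GC7 library was below every mock library, and the level was 1.43-fold lower (log2 fold change -0.52, SE 0.0753, edgeR adjusted p = 9.08e-05). *Hsp90ab1* (ENSMUSG00000023944, chr17:45567775-45573271), the constitutive isoform, was 4462, 4744, 4338 and 4365 CPM in mock-treated and 4449, 4275, 3914 and 4367 CPM in GC7-treated cells. The groups overlapped, and the log2 fold change of -0.07 (SE 0.0731) did not pass the test (adjusted p = 0.398).

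Within a library the ratio of *Hsp90aa1* to *Hsp90ab1*, which does not depend on library scaling, was 0.252, 0.213, 0.230 and 0.233 in mock-treated and 0.172, 0.183, 0.166 and 0.161 in GC7-treated cells. All 4 GC7 ratios were below all 4 mock ratios, a difference of -0.44 on the log2 scale (p = 0.0286 by a two-sided exact permutation test, which is the smallest value that 4 against 4 libraries allow and is unchanged by adjustment over 6 such pairs). The 6 pairs were chosen with earlier results of these data known, so their p-values are not independent support for a change. The sum of both genes was 5515 ± 193 CPM in mock-treated and 4977 ± 283 CPM in GC7-treated cells (SD, n = 4 each). Per kilobase of exon, *Hsp90ab1* ranked highest of the 40 mRNAs in both groups, at 1493 ± 61.9 and 1418 ± 78.6 CPM per kb. *Hsp90aa1* stood at 264 ± 14.4 and 184.5 ± 15.1 CPM per kb. Lengths were the union of all annotated exons of a gene (2999 bases for *Hsp90ab1*, 4301 for *Hspa8*), which can exceed the length of its main mRNA. The ranking depends on that choice of length.

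*Hsp90aa1* has processed pseudogenes nearly identical to its transcript. *Gm12346* (99.5% identity) and *Gm5844* (98.6%) passed the filter, with 5.73% and 1.34% of the counts of *Hsp90aa1*, and their log2 fold changes were -0.57 and -0.64. How reads were divided among such copies is not stated, so these pseudogene values are uncertain. Adding the counts of its pseudogenes to *Hsp90aa1* left its log2 ratio of group means at -0.52.

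Among the HSP90 co-chaperones both FK506-binding immunophilins fell. *Fkbp5* (ENSMUSG00000024222, chr17:28399094-28517527), which holds steroid receptors in a state of low hormone affinity and is itself a glucocorticoid-induced gene, was 223, 220, 200 and 213 CPM in mock-treated and 122, 125, 93.9 and 111 CPM in GC7-treated replicates 1 to 4. The groups were far apart, and this was the largest change of any member (log2 fold change -0.92, SE 0.0860, edgeR adjusted p = 2.16e-06). *Fkbp4* (ENSMUSG00000030357, chr6:128429735-128438677), its relative that favours the active receptor, averaged 217 ± 20.7 CPM in mock-treated and 164 ± 17.4 CPM in GC7-treated cells (SD, n = 4 each), 1.32-fold lower (adjusted p = 0.00192). The fall was larger for *Fkbp5*. Their ratio within a library was 1.04, 0.892, 0.989 and 1.04 in mock-treated and 0.689, 0.728, 0.677 and 0.651 in GC7-treated cells, lower by 0.53 on the log2 scale (exact permutation test, p = 0.0286, the smallest possible).

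The other 4 co-chaperones did not pass the test. *Ptges3*, which closes the HSP90 clamp on its client, had the highest change of the group. It was 128, 132, 116 and 114 CPM in mock-treated and 147, 152, 130 and 148 CPM in GC7-treated replicates 1 to 4, with 1 GC7 library inside the mock range (log2 fold change 0.23, SE 0.0711, adjusted p = 0.0128). Its pseudogene *Ptges3-ps*, 100% identical over 480 bases, held 9.64% as many counts. *Stip1*, which hands clients from HSP70 to HSP90, stood at -0.20 on the log2 scale (adjusted p = 0.0210) and *Cdc37*, the adaptor for kinases, at -0.15 (adjusted p = 0.0837), with every GC7 library of both genes below every mock library. *Ahsa1*, which speeds the ATPase of HSP90, was at -0.02 (adjusted p = 0.875), and its sign turned with library totals (0.08). The 6 co-chaperones summed to 1216 ± 76.9 CPM in mock-treated and 1017 ± 64.8 CPM in GC7-treated cells.

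**Figure D3:**
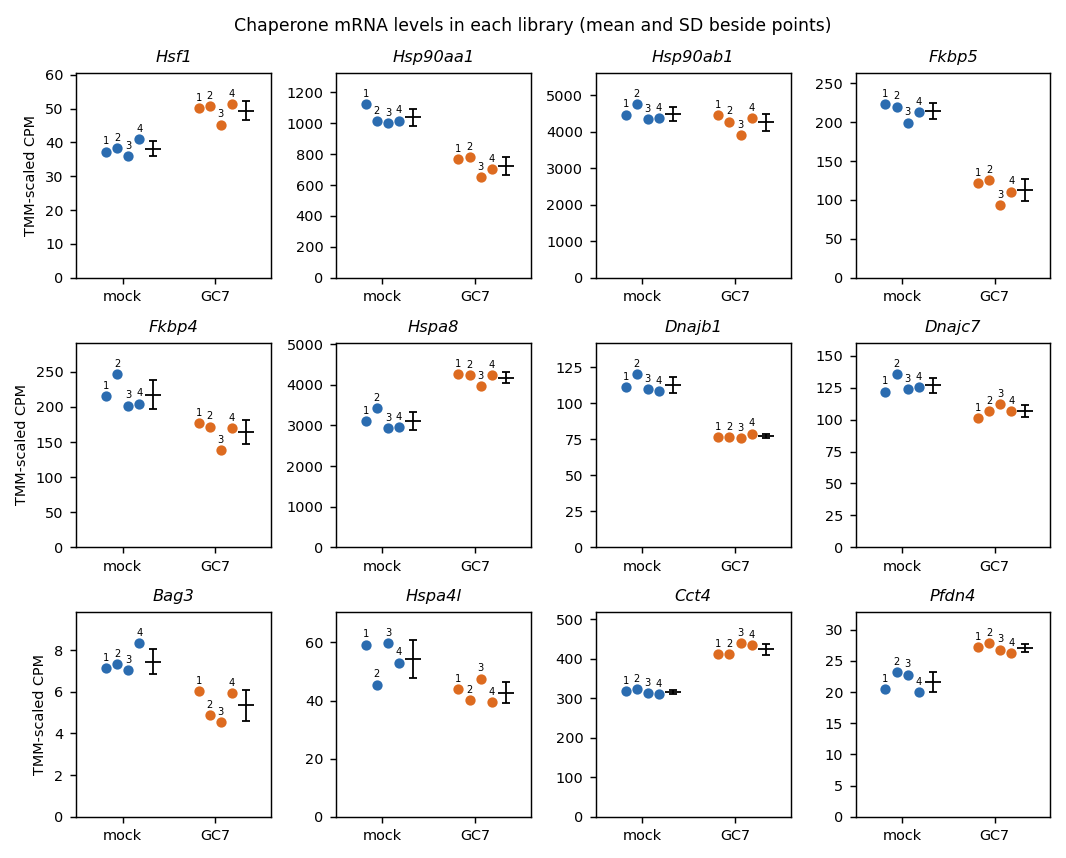
TMM-scaled CPM (vertical axes, each from 0) of the 11 called members and *Hsp90ab1* in each library, numbered by replicate, with the group mean and SD beside the points. The groups do not overlap for the called members except *Hspa4l*, where the GC7-treated replicate 3 is above the mock-treated replicate 2.

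*Hspa8* (ENSMUSG00000015656, chr9:40800984-40810087), the constitutive HSP70 of the cytosol, was by far the most abundant of the 4 members that rose. Its level was 3112, 3422, 2941 and 2953 CPM in mock-treated and 4269, 4231, 3965 and 4242 CPM in GC7-treated replicates 1 to 4. Each GC7 library was above each mock library, and the level was 1.34-fold higher (log2 fold change 0.43, SE 0.0747, edgeR adjusted p = 3.76e-04). It made up 20.8% to 21.9% of all counts of the 40 members in mock-treated and 27.7% to 28.0% in GC7-treated cells. The 40 members summed to 14690 ± 683 CPM in mock-treated and 14990 ± 551 CPM in GC7-treated cells, and without *Hspa8* to 11580 ± 459 and 10810 ± 409 CPM. Its pseudogenes *Gm8355* and *Gm6210* passed the filter with 1.02% and 0.539% of its counts, and adding all its pseudogenes left the log2 ratio at 0.43.

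The stress-inducible HSP70 genes stayed close to the floor of detection in both groups. *Hspa1a* had 39, 30, 24 and 28 counts in mock-treated and 30, 20, 20 and 21 in GC7-treated replicates 1 to 4. *Hspa1b* had 90, 66, 52 and 50 counts in mock-treated and 64, 38, 31 and 46 in GC7-treated cells. Both sets of counts overlapped between the groups, and the coding sequences are near-identical, so reads may have been lost or exchanged between them. In mock-treated cells they stood at 0.486 and 1.10 CPM per kb of exon, where *Hspa8* stood at 722 CPM per kb.

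Their sum relative to *Hspa8* was 0.00214, 0.00121, 0.00123 and 0.00135 in mock-treated and 0.00109, 6.43e-04, 7.38e-04 and 6.78e-04 in GC7-treated cells, a difference of -0.91 on the log2 scale (exact permutation test, p = 0.0286, the smallest possible). Part of that difference is the rise of *Hspa8* itself, the denominator. *Hspa14*, the HSP70 that works with DNAJC2 at the ribosome, was 79.4, 82.5, 76.7 and 76.6 CPM in mock-treated and 85.6, 84.4, 81.6 and 87.5 CPM in GC7-treated cells. Its groups overlapped slightly (log2 fold change 0.11, adjusted p = 0.122), and a same-strand gene, *Gm45902*, shares its locus. The small heat shock protein *Hspb1* had at most 10 counts in any library, and was as low as 1.

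The nucleotide exchange factors release clients from HSP70. Of these 5 genes 2 were called lower and none higher, where 23.5% of all genes tested were lower and 23% higher. *Bag3* (ENSMUSG00000030847, chr7:128523616-128546981), which links HSP70 to selective autophagy, was 7.14, 7.32, 7.05 and 8.32 CPM in mock-treated and 6.05, 4.89, 4.55 and 5.94 CPM in GC7-treated replicates 1 to 4. The groups did not overlap, though the level was low (log2 fold change -0.47, SE 0.126, edgeR adjusted p = 0.00648). The call for *Bag3* was lost when any one of 5 libraries was left out (mock-treated replicates 1, 3 and 4, GC7-treated replicates 2 and 3), with adjusted p up to 0.0233, and with library totals (0.0216). *Bag1*, its relative that couples HSP70 to the proteasome, was 103, 127, 101 and 106 CPM in mock-treated and 118, 118, 119 and 123 CPM in GC7-treated cells. The mock-treated replicate 2 stood above all GC7 libraries for *Bag1* (log2 fold change 0.13, adjusted p = 0.142), and without that library the change was 0.21 (adjusted p = 0.00145).

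The ratio of *Bag3* to *Bag1* was 0.0701, 0.0585, 0.0709 and 0.0794 in mock-treated and 0.0520, 0.0421, 0.0390 and 0.0490 in GC7-treated cells (-0.62 on the log2 scale, exact permutation test, p = 0.0286, the smallest possible). Of the HSP110 genes, *Hspa4l* was 1.27-fold lower (log2 fold change -0.35, SE 0.0949, adjusted p = 0.00737), with overlapping groups. Its call was lost when any one of 6 libraries was left out (mock-treated replicates 1, 3 and 4, GC7-treated replicates 1, 2 and 4, adjusted p up to 0.0297), and also with library totals. *Hspa4* did not change past the test (0.07, adjusted p = 0.489), nor did the stress-inducible *Hsph1* (-0.22, adjusted p = 0.111). The ratio of *Hsph1* to *Hspa4* was lower in every GC7 library than in every mock library, though neither gene was called. It was 0.294, 0.303, 0.292 and 0.326 in mock-treated and 0.266, 0.267, 0.220 and 0.237 in GC7-treated cells (-0.30 on the log2 scale, exact permutation test, p = 0.0286, the smallest possible). The pair was chosen with earlier results of these data known, so this p-value is not independent support for a change.

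Of the 7 J-domain proteins 2 were called lower and none higher, where 23.5% of all genes tested were lower and 23% higher. *Dnajb1* (ENSMUSG00000005483, chr8:83608193-83612653), the stress-inducible partner that directs HSP70 to aggregated protein, was 111, 120, 110 and 109 CPM in mock-treated and 76.7, 76.6, 75.8 and 78.9 CPM in GC7-treated replicates 1 to 4. The GC7 libraries lay close together and all below the mock libraries (log2 fold change -0.55, SE 0.0565, edgeR adjusted p = 5.20e-06). *Dnajc7* (ENSMUSG00000014195, chr11:100582818-100620168), which binds both HSP70 and HSP90, averaged 127 ± 6.18 CPM in mock-treated and 107 ± 4.65 CPM in GC7-treated cells (SD, n = 4 each), 1.19-fold lower (adjusted p = 0.00328). Its locus overlaps *Cnp* and *Nkiras2* on the opposite strand, and the strand setting of the counting is not stated. The *Dnajc7* call was lost when GC7-treated replicate 1, 2 or 4 was left out (adjusted p up to 0.0181) and with library totals (0.0277).

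*Dnaja2*, a general HSP70 partner, had the highest change of the group and was not called. It was 172, 164, 156 and 164 CPM in mock-treated and 188, 186, 162 and 181 CPM in GC7-treated cells, with overlap (log2 fold change 0.12, adjusted p = 0.113). The ratio of *Dnajb1* to *Dnaja2* was 0.647, 0.731, 0.704 and 0.660 in mock-treated and 0.408, 0.413, 0.469 and 0.436 in GC7-treated cells, lower by 0.67 on the log2 scale in GC7-treated cells (exact permutation test, p = 0.0286, the smallest possible). The remaining 4 lay between -0.09 and -0.03 on the log2 scale. These were *Dnaja1* (adjusted p = 0.331), *Dnajb6*, which holds back aggregation of polyglutamine proteins (0.219), *Dnajc2* of the ribosome (0.374) and *Dnajb4* (0.832), and the sign of all 4 turned with library totals. The *Dnaja1* locus overlaps the tested gene *Smu1* (mean 91.8 CPM) on the opposite strand. The 7 J-domain genes summed to 917 ± 28.1 CPM in mock-treated and 850 ± 11.4 CPM in GC7-treated cells.

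**Figure D4:**
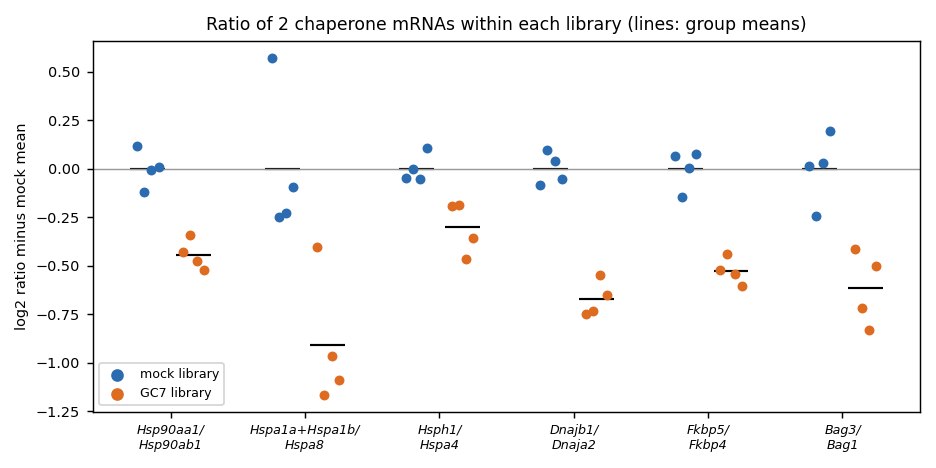
Log2 ratio of 2 chaperone mRNAs within each library, with the mean of the 4 mock libraries set to 0 for each pair; points are libraries and lines are group means. The GC7 means lie between -0.91 and -0.30, and no GC7 point reaches the lowest mock point of its pair.

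In all 6 pairs the member first named, the inducible one or, for the immunophilins, *Fkbp5*, was lower relative to its partner in every GC7 library. A lower ratio can also come from a higher partner. Of the partners, *Hspa8* was called higher (log2 fold change 0.43) and *Fkbp4* was called lower (-0.40). *Bag1* (0.13), *Dnaja2* (0.12), *Hspa4* (0.07) and *Hsp90ab1* (-0.07) were not called. The pairs are not independent of each other, since they come from the same 8 libraries, and they were chosen with earlier results of these data known.

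The chaperonin TRiC, a ring-shaped chamber built from 8 different subunits, had nearly the same summed mRNA in both groups, at 2974 ± 123 CPM in mock-treated and 2967 ± 41.8 CPM in GC7-treated cells (SD, n = 4 each), a ratio of 0.998 that became 1.065 with library totals. The subunits did not move alike. *Cct4* (ENSMUSG00000007739, chr11:22990519-23003780) was 317, 323, 312 and 311 CPM in mock-treated and 411, 411, 438 and 434 CPM in GC7-treated replicates 1 to 4. The libraries were tightly grouped in both conditions, and *Cct4* was 1.34-fold higher (log2 fold change 0.42, SE 0.0559, edgeR adjusted p = 4.14e-05), the single subunit called.

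*Cct7* had the lowest change, at 400, 453, 392 and 390 CPM in mock-treated and 362, 348, 339 and 371 CPM in GC7-treated cells. All GC7 libraries were below all mock libraries, without passing the test (log2 fold change -0.20, SE 0.0670, adjusted p = 0.0201). *Cct5* was at -0.16 (adjusted p = 0.0466) with the same separation, *Cct2* at 0.15 (adjusted p = 0.0496) with every GC7 library above every mock library, and without the mock-treated replicate 2 *Cct2* passed at 0.18 (adjusted p = 0.00487). *Tcp1*, *Cct3*, *Cct6a* and *Cct8* lay between -0.13 and -0.07 with overlapping groups and adjusted p from 0.109 to 0.395. For *Tcp1*, 445 bases are shared at 98.7% identity with *Acat2*, which was much lower in GC7-treated cells (log2 fold change -1.25), and *Tcp1*, *Cct6a*, *Cct7* and *Cct8* each overlap a tested gene on the opposite strand.

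As a share of all TRiC counts, *Cct4* was 10.7%, 10.3%, 10.8% and 10.7% in mock-treated and 13.7%, 13.85%, 15.1% and 14.5% in GC7-treated replicates 1 to 4, a rise of 3.65 percentage points. *Cct2* went from 17.9% ± 0.340 to 19.9% ± 0.170, *Cct5* from 14.9% ± 0.481 to 13.4% ± 0.439 and *Cct7* from 13.7% ± 0.432 to 11.97% ± 0.342 (SD, n = 4 each), and these 3 also separated the groups in every library. The shares of the other 4 overlapped between the groups. Shares sum to 100% within a library, so a rise of one subunit lowers the others.

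**Figure D5:**
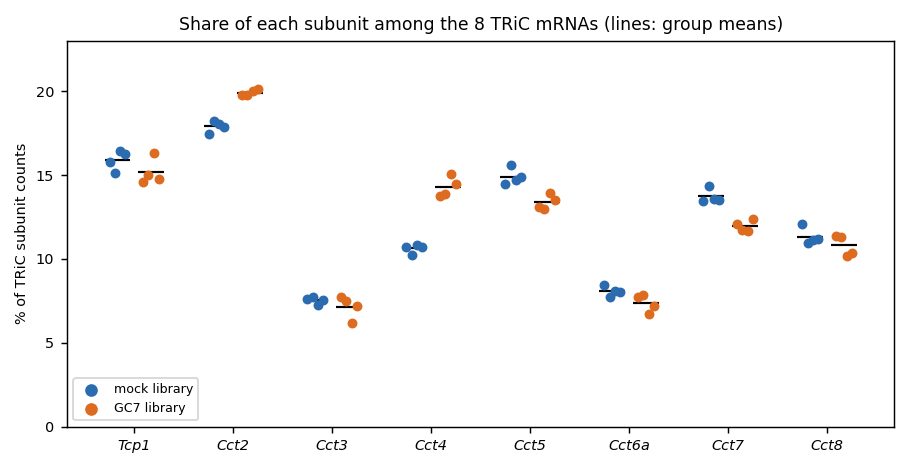
Share of each of the 8 TRiC subunits in the summed TRiC counts of a library (vertical axis, per cent), with points for libraries and lines for group means. *Cct2* and *Cct4* take a larger share in all GC7 libraries, *Cct5* and *Cct7* a smaller one, and the other 4 overlap.

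Prefoldin, the 6-subunit clamp that passes actin and tubulin to TRiC, showed a single change past the test. *Pfdn4* (ENSMUSG00000052033, chr2:170496428-170519123) was 20.5, 23.2, 22.8 and 20.0 CPM in mock-treated and 27.3, 27.8, 26.8 and 26.3 CPM in GC7-treated replicates 1 to 4. The GC7 libraries were all above the mock libraries (log2 fold change 0.32, SE 0.0733, edgeR adjusted p = 0.00251), and the call was lost without the mock-treated replicate 1 or 4 or the GC7-treated replicate 2 (adjusted p up to 0.0134). *Pfdn6* was lowest, at 53.9, 70.8, 57.0 and 60.2 CPM in mock-treated and 48.5, 51.5, 53.9 and 51.1 CPM in GC7-treated cells. The GC7-treated replicate 3 just reached the mock range (log2 fold change -0.24, SE 0.0839, adjusted p = 0.0261).

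*Pfdn5* was at 0.26 (adjusted p = 0.0535), with the mock-treated replicate 2 inside the GC7 range, and passed without that library at 0.36 (adjusted p = 0.00188). A tested same-strand gene, *Myg1* (mean 37.6 CPM), overlaps the *Pfdn5* locus. *Vbp1* (0.12), *Pfdn1* (0.09) and *Pfdn2* (0.04) had adjusted p from 0.113 to 0.644. The 6 subunits summed to 391 ± 34.8 CPM in mock-treated and 421 ± 23.5 CPM in GC7-treated cells. Within prefoldin counts, *Pfdn4* took 5.55% ± 0.275 in mock-treated and 6.44% ± 0.467 in GC7-treated cells and *Pfdn6* 15.5% ± 0.938 and 12.2% ± 0.387, each without overlap of the groups, while *Pfdn1*, *Pfdn2*, *Vbp1* and *Pfdn5* overlapped.

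The other genes of these pathways were read from 8 lists of 89 genes, of which 73 were tested, 14 were higher and 25 lower, where 23% of all genes tested were higher and 23.5% lower. These shares are also the background of the smaller lists below, in which 1 gene weighs much. *Hsf4*, a heat shock factor known mainly from the lens, was 13.9, 21.02, 14.3 and 15.1 CPM in mock-treated and 3.83, 4.44, 4.33 and 4.99 CPM in GC7-treated cells (log2 fold change -1.87, SE 0.151, edgeR adjusted p = 6.06e-07), while another factor of that list was higher and the third gene tested was not called. Of 17 further HSP90 co-chaperones 5 were higher and 5 lower, with a median log2 fold change of -0.06. Of 8 further HSP70 partners 1 was higher and 3 lower (median -0.09), and of 14 further J-domain proteins 2 were higher and 5 lower (median -0.04). Of 8 small heat shock proteins 1 passed the filter and was not called.

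*Pdrg1*, a prefoldin-like protein, was 21.3, 25.96, 22.1 and 21.7 CPM in mock-treated and 40.2, 43.8, 61.0 and 49.8 CPM in GC7-treated cells (log2 fold change 1.09, SE 0.121, adjusted p = 9.47e-06). It was one of 3 higher and 1 lower among 9 partners of chaperonin and prefoldin tested. Of 6 tubulin cofactors 1 was higher and 1 lower. Of 15 actins, tubulins and other clients of TRiC tested, 9 were lower (23.5% of all genes tested were) and 1 was higher, with a median log2 fold change of -0.51 beside 0.02 over all genes. *Actb* (4450 ± 367 to 2463 ± 328 CPM, log2 fold change -0.85, adjusted p = 2.10e-05) and *Actg1* (5123 ± 336 to 3295 ± 390 CPM, -0.64, adjusted p = 1.15e-04) were lower, while the clients with the next highest CPM, *Tubb5* (2427 ± 90.9 to 2542 ± 53.2 CPM, 0.07, adjusted p = 0.394), *Tuba1b* (1306 ± 77.5 to 1439 ± 66.4 CPM, 0.14, adjusted p = 0.0995) and *Tuba1c* (947 ± 65.2 to 936 ± 25.6 CPM, -0.02, adjusted p = 0.847), were not called. These 5 clients are named for having the highest CPM of the list, not scaled by length, after their values were seen. Of the companion genes, *Hsf4* and *Pdrg1* were the only ones past both an adjusted p of 0.01 and a 2-fold change.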

How the data were processed

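RNA-seq of 8 libraries (4 mock-treated, 4 GC7-treated) was used, grouped by the sample labels. The authors deposited raw read counts per Ensembl gene, 1 table per library, made with Cutadapt, STAR on GRCm38 and featureCounts; the strand setting and the handling of reads with several matches are not given in the sources used here. Gene names and exon lengths came from GENCODE M21, and all identifiers matched.

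The 11189 genes above 3 CPM in 4 or more libraries were tested with edgeR 4.0.16 (R 4.3.3), TMM factors and the quasi-likelihood F test, group as the only term, and were called at a Benjamini-Hochberg adjusted p under 0.01. The study's criterion also asks for a 2-fold change, which was counted separately. A prior count of 2 was used for log2 CPM, from which the ratios of 2 members, the overlap of groups and Dixon's ratio were taken. The fitted fold changes used the default prior count of edgeR. Their standard errors were derived from the fold change and its F statistic. Tested on simulated data for these 11189 genes, the fit recovered 50 of 50 genes at each of the folds 0.25, 0.5, 2 and 4, with 3 other genes called. The changes were put only into genes that were not weakly expressed. Changes under 2-fold, the size of those in all called members, were not simulated, so recovery at that size is not known. Ratios of 2 members within a library were compared with two-sided exact permutation tests over the 8 libraries, adjusted over 6 pairs. Near-identical copies were transcript matches of at least 200 bases and 90% identity. A level of 3 CPM is over 50 counts in every library, and reads carry no molecular identifiers. Counting error weighs more where counts are few, as for *Bag3* (82 to 173 counts) and for *Hspa1a* and *Hspa1b* (20 to 90 counts). Alternatives were RLE factors, library totals, no filter, filterByExpr, DESeq2 1.42.0, limma-voom (limma 3.58.1), a replicate block and each library left out, and, chosen after seeing the data, both libraries that stood apart left out.

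All 40 members are named, with values in every library for *Hsf1* and for the lowest and highest change in each role. Companion genes are named past the threshold and a 2-fold change, except the 5 clients of TRiC with the highest CPM, chosen after their values were seen. The members and lists were chosen with earlier results of these data known. Python 3.11.15, numpy 2.4.6, pandas 2.3.3, scipy 1.17.1 and matplotlib 3.10.9 were used for the rest.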

Additional observations from a re-analysis of the deposited data

Results flagged for a closer look

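In 6 of 86 groups of 4 libraries, 1 library lay far from the other 3 by Dixon's ratio, which is its gap to the nearest library over the whole range of log2 CPM; chance alone would give about 4.3. *Cct2* (0.948), *Cct5* (0.876) and *Cct7* (0.845) were each highest in the mock-treated replicate 2, at 575, 491 and 453 CPM, where the other mock libraries reached at most 520, 431 and 400 CPM. *Hsp90aa1* was highest in the mock-treated replicate 1 (ratio 0.852), at 1122 CPM, with the others at 1000 to 1017 CPM. *Hspa8* (0.877) and *Fkbp4* (0.839) were each lowest in the GC7-treated replicate 3, at 3965 and 139 CPM, where the next libraries stood at 4231 and 170 CPM. Without the mock-treated replicate 2 *Cct2* passed the test, as given above, and *Hsp90aa1*, *Hspa8* and *Fkbp4* kept their calls when the library named was left out.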

How the results depend on the processing

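*Hsf1*, *Hspa8*, *Cct4*, *Hsp90aa1*, *Fkbp4*, *Fkbp5* and *Dnajb1* kept their direction and their side of the threshold under all 16 alternatives. *Bag3*, *Hspa4l*, *Dnajc7* and *Pfdn4* kept their direction and lost the call in 7, 7, 4 and 3 of them. Members called higher (4) became 9 with library totals, 8 without the mock-treated replicate 2 (3 to 8 over the libraries left out in turn) and 10 without both libraries that stood apart. Members called lower (7) became 4 with library totals and 4 without the GC7-treated replicate 2 (4 to 7 over the libraries left out in turn). DESeq2 called 5 members higher and 9 lower. Over all genes tested it called 2813 higher and 2863 lower, where the main fit called 2579 and 2635. The libraries left out in turn gave 2032 to 2785 higher and 2196 to 2733 lower over all genes tested. Library totals moved the median of all genes by 0.0939 on the log2 scale. Genes over 2-fold higher (355) became 773 with no filter, 605 with filterByExpr (more genes tested in both) and 227 without both libraries, and genes over 2-fold lower (594) became 1189 with no filter and 1007 with filterByExpr. The cause of the other shifts was not tested.

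Signs turned for uncalled members near 0. With library totals the log2 fold changes were 0.0795 for *Ahsa1*, 0.0115 for *Cct3*, 0.0239 for *Cct8*, 0.0249 for *Dnaja1*, 0.0639 for *Dnajb4*, 0.0066 for *Dnajb6*, 0.0264 for *Dnajc2*, 0.0201 for *Hsp90ab1* and 0.0248 for *Tcp1*. Without both libraries that stood apart they were 0.0948 for *Ahsa1*, 0.0309 for *Cct3* and 0.0032 for *Dnajc2*. Over the libraries left out in turn *Ahsa1* ran from -0.0701 to 0.0481, *Dnajb4* from -0.0776 to 0.0398 and *Pfdn2* from -0.0012 to 0.0972, turning for *Ahsa1* without the mock-treated replicate 2 (0.0307) or the GC7-treated replicate 3 (0.0481), for *Dnajb4* without the mock-treated replicate 3 (0.0088) or the GC7-treated replicate 1 (0.0398) and for *Pfdn2* without the mock-treated replicate 3.

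The labels do not say whether the replicate numbers pair the libraries. Deviations of same-numbered libraries correlated at 0.272, -0.116, 0.202 and -0.183 across genes. Their mean was 0.044, beside -0.02 for differently numbered libraries, and so few values of mixed sign cannot decide whether the libraries are paired. Adding the replicate block to the model changed no member call. For the ratios, the pairing by replicate number left the differences as they were, at -0.4432 for *Hsp90aa1* to *Hsp90ab1*, -0.9060 for *Hspa1a* with *Hspa1b* to *Hspa8*, -0.2995 for *Hsph1* to *Hspa4*, -0.6687 for *Dnajb1* to *Dnaja2*, -0.5261 for *Fkbp5* to *Fkbp4* and -0.6157 for *Bag3* to *Bag1*, with an exact adjusted p of 0.125, the smallest that 4 pairs allow. With 1 library left out the smallest exact p is 0.0571, so none could pass, and the differences ran in that order from -0.4829 to -0.4038, -1.0728 to -0.7151, -0.3369 to -0.2448, -0.7098 to -0.6368, -0.5752 to -0.5004 and -0.6973 to -0.5442.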
